A study of Mus musculus with 12 samples.

Results

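The response of 10T1/2 cells to an adipogenic differentiation medium with dexamethasone was described from 4 of the 12 arrays of the series, chosen as the arrays of this line at 0 hr and at 48 hr. 10T1/2 is an established mouse line of embryonic fibroblast origin, which the labels call mesenchymal stem cells. The cells were transfected with a negative control siRNA (si-Ctr) or with an siRNA against the histone methyltransferase gene Setdb1 (si-Setdb1) on day -5 and again on day 0. They were harvested on day 0 before dexamethasone (0 hr) or after 48 hr in differentiation medium holding 0.25 µM dexamethasone. The 4 groups are thus si-Ctr at 0 hr, si-Ctr at 48 hr, si-Setdb1 at 0 hr and si-Setdb1 at 48 hr, with 1 array in each, and the medium was read as the difference between 48 hr and 0 hr within each of the 2 siRNA pairs. All 4 groups had been transfected, and no untransfected cells are among them. No array of this line was kept for 48 hr without dexamethasone, so the hormone, the other medium components, the second transfection and the time itself cannot be told apart. The labels do not say whether the arrays came from separate cultures. The p-values rest on how far the 2 pairs of a line differed in their response. Any effect of the siRNA on the response is part of that spread. It cannot be told apart there from technical differences or differences between cultures.

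Dexamethasone is a synthetic glucocorticoid. It binds the glucocorticoid receptor, a nuclear receptor that then enters the nucleus, binds DNA at glucocorticoid response elements and raises or lowers the transcription of its targets. In adipogenic cultures the hormone is given with other inducers to start the transcription factor cascade that runs through the C/EBP proteins to Pparg, the master regulator of fat cell genes, and 10T1/2 cells can enter the fat, bone, cartilage or muscle lineage.

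The 4 arrays were alike in their technical measures, with a median signal of 11.2 to 12.1 and a 3' to 5' signal ratio of the Gapdh control probe sets of 0.859 to 0.933. Setdb1 itself did not read lower with its siRNA at the brightest probe set, which gave 124.3 at 0 hr and 120.5 at 48 hr in the si-Ctr pair, but 157.8 and 209 in the pair labelled si-Setdb1. Of its 2 dimmer probe sets, one read 2.8 and 1.6, and 0.6 and 0.4, lower in the latter pair but near the floor, and the other 6.8 and 7.2, and 7.3 and 14. Where the probe sets lie relative to the siRNA target is not given, and the pair is called by its label throughout. Mesenchymal markers summed to a signal of 38600 to 43111 with 14 or 15 of 16 above the filter level of 7.67. A gene whose mean over all 12 arrays, those of 3T3-L1 included, lay under this level was kept out of the tests. The summed signal was 36.6 to 51.3 for 8 blood and immune markers, 61.8 to 78 for 8 epithelial markers, 37.6 to 74.7 for 8 endothelial markers and 34.5 to 54.7 for 7 skeletal muscle markers. In bulk RNA, a change in the share of cells that express a gene and a change in its RNA per cell cannot be told apart.

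At 48 hr, 6 of 12402 tested genes (0.0484%) had passed the threshold of an adjusted p under 0.05: Timp4, Zbtb16, Aldh1a1, Xdh and Clca1 rose (0.0403% of genes) and Lrrn3 fell (0.00806%). The test was limma's moderated test on log2(signal + 0.8) over 2 pairs of 10T1/2 and 2 of 3T3-L1, with Benjamini-Hochberg adjustment. The log2 differences below are means of 2 pairs ± SE from this fit, so n = 2 pairs in each. Without any 1 of the 4 pairs, 0 genes passed, and the smallest 2-sided p that an exact sign-flip test over 2 pairs can give is 0.5. An unadjusted p under 0.05 was reached by 2133 genes, and 207 genes (1.67%) were 2-fold or more higher and 226 (1.82%) 2-fold or more lower in both pairs.

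Timp4 (probe set 1423405_at), a secreted inhibitor of matrix metalloproteinases that is abundant in fat, read 11.5 at 0 hr and 560 at 48 hr in the si-Ctr pair, and 19.2 and 1117 in the pair labelled si-Setdb1. Both 48 hr arrays lay far above both 0 hr arrays, and the gene rose 42.8-fold (log2 difference 5.42 ± 0.14, adjusted p = 0.0188). Its second probe set, 1450974_at, read 11.9 and 265.2, and 17.1 and 553. Zbtb16 (1439163_at), the zinc finger repressor PLZF and a strongly glucocorticoid-induced gene, read 2.1 and 150.1, and 4.5 and 158.1 (5.15 ± 0.21, adjusted p = 0.0299). Its 0 hr signals were under the filter level of 7.67, and its log2 difference was 3.15 with a pseudocount 20 times larger. All 3 of its probe sets were higher at 48 hr in both pairs.

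Aldh1a1 (1416468_at), a retinaldehyde dehydrogenase that makes retinoic acid, read 2.5 and 110.2, and 0.6 and 56 (5.13 ± 0.21, adjusted p = 0.0299). Its 0 hr arrays were also under the filter level, so that its fold depends on the pseudocount: with the larger one the log2 difference was 2.50. Xdh (1451006_at), the xanthine dehydrogenase that ends purine breakdown and is known as a promoter of fat cell formation in mice, read 48.7 and 607.5, and 72.5 and 1088. It rose 12.4-fold (3.64 ± 0.14, adjusted p = 0.0299), with the arrays of each time close together. The probe set 1417852_x_at, deposited as Clca1, read 9.8 and 91, and 11.9 and 115.9 (3.03 ± 0.13, adjusted p = 0.0299). That symbol is an older name, which RefSeq lists as a synonym of Clca3a1. The family has near-identical members, so the gene behind this signal is uncertain, and the mean of its probe sets differed by 1.86.

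Lrrn3 (1434539_at), a neuronal leucine-rich repeat membrane protein, read 237.7 at 0 hr and 17 at 48 hr in the si-Ctr pair, and 211.5 and 17.1 in the pair labelled si-Setdb1. The 48 hr arrays lay well below the 0 hr arrays, and the gene fell 11.3-fold (-3.50 ± 0.16, adjusted p = 0.0377).

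**Figure D1:**
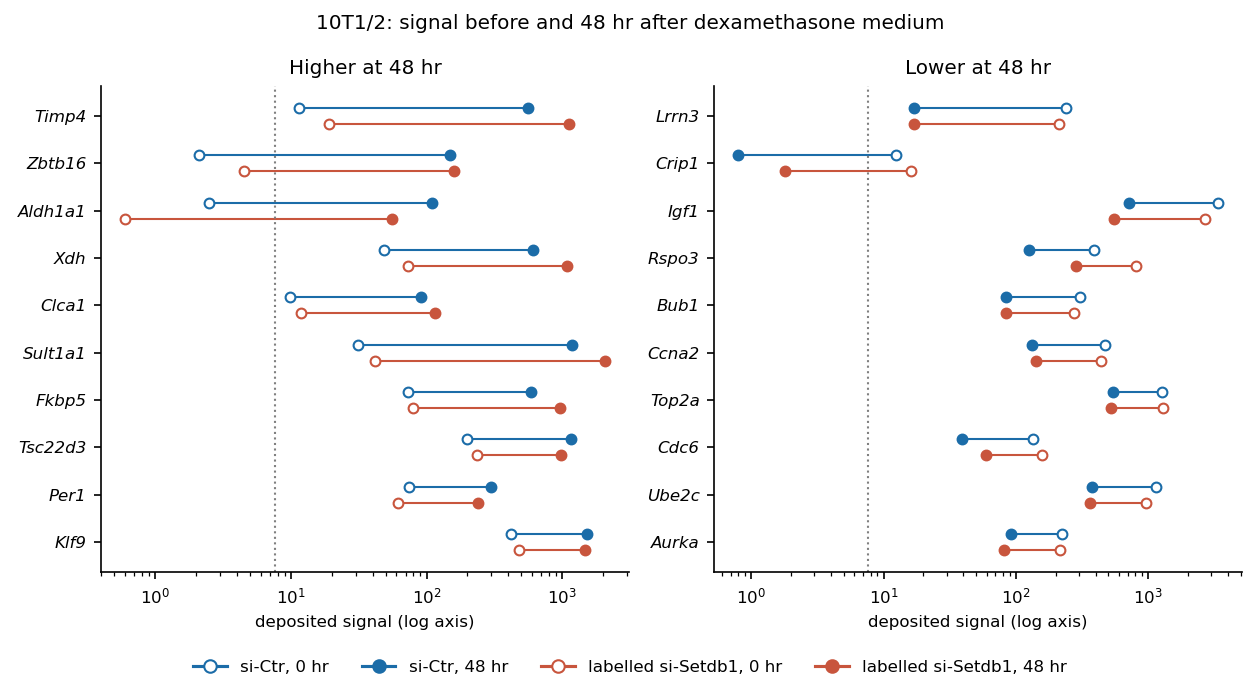
Deposited signal (log axis) of 10 genes higher and 10 genes lower at 48 hr in 10T1/2. Each line joins the 0 hr array (open point) and the 48 hr array (filled point) of 1 pair, blue for si-Ctr and red for the pair labelled si-Setdb1, and the dotted line marks the filter level of 7.67. For Timp4 the 2 filled points lie at 560 and 1117 and the open points at 11.5 and 19.2. In every gene shown, both filled points lie on the same side of both open points.

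Outside the 6 genes that passed, further genes moved alike in both pairs without passing. Sult1a1, a phenol sulfotransferase, read 31 at 0 hr and 1174 at 48 hr in the si-Ctr pair, and 41.6 and 2066 in the pair labelled si-Setdb1 (log2 difference 5.17 ± 0.29, adjusted p = 0.0532). Its 48 hr arrays lay far above the 0 hr arrays, at 36-fold on average. Aldh1a7, a close paralog of Aldh1a1 whose probes may share target sequence with it, read 10.3 and 728.7, and 11.2 and 777.3 (5.78 ± 0.43, adjusted p = 0.06). Mgst1, a microsomal glutathione transferase, read 361.1 and 1463, and 916.8 and 3797 (1.94 ± 0.12, adjusted p = 0.06). Its level differed between the siRNA pairs already at 0 hr, while its difference between the times was nearly the same in both. Tnfrsf21, a death receptor of the TNF receptor family, read 4.3 and 29.6, and 11.2 and 59.8 (2.38 ± 0.15, adjusted p = 0.06), and with the pseudocount 20 times larger its log2 difference was 1.35.

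Among genes lower at 48 hr, Igf1, the secreted growth factor insulin-like growth factor 1, did not pass, with signals of 3366 at 0 hr and 709.7 at 48 hr in the si-Ctr pair and 2685 and 554.3 in the pair labelled si-Setdb1 (-2.22 ± 0.12, adjusted p = 0.0532). All 4 of its probe sets were lower at 48 hr in each pair, and both 48 hr arrays lay well under both 0 hr arrays. Crip1, a small LIM domain protein, read 12.4 and 0.8, and 16 and 1.8, so its 48 hr signals were under the filter level (-2.99 ± 0.15, adjusted p = 0.0532), and with the pseudocount 20 times larger its log2 difference was -0.89. Rspo3, a secreted enhancer of Wnt signalling, read 387.1 and 126.3, and 811.6 and 284.3 (-1.49 ± 0.13, adjusted p = 0.0605). Its 48 hr arrays lay under both 0 hr arrays although the pair labelled si-Setdb1 was brighter at each time. The mitotic genes Bub1, Spdl1 and Cenpw stood in the same group of leading falls and are described with the cell cycle genes.

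**Figure D2:**
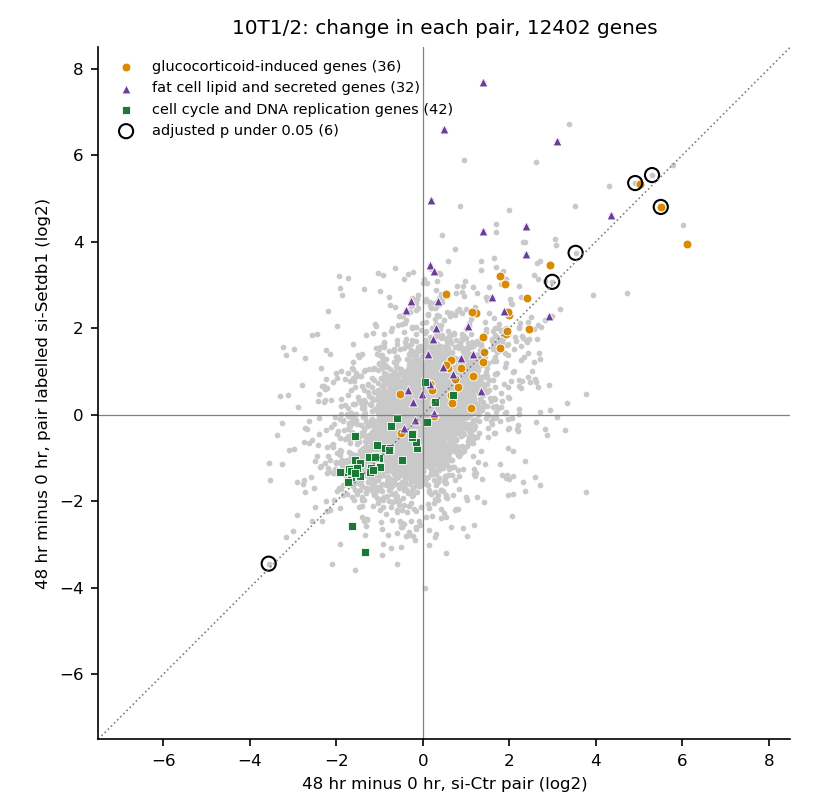
Log2 difference between 48 hr and 0 hr in the si-Ctr pair (horizontal) and in the pair labelled si-Setdb1 (vertical) for the 12402 tested genes of 10T1/2 (grey), with the tested members of 3 lists in colour and the 6 genes of adjusted p under 0.05 ringed. Glucocorticoid-induced genes lie near the dotted line of equal difference on the upper right, cell cycle genes near it on the lower left, and most of the 32 fat cell genes lie above it.

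Genes that glucocorticoids are known to induce were mostly higher at 48 hr in both pairs. Of 44 genes listed, 43 were on the array and 36 passed the filter, and 19 of the 36 (52.8%) were 2-fold or more higher in both pairs against 1.67% of all 12402 tested genes. None was 2-fold or more lower in both pairs, against 1.82% of all genes. The median log2 difference of the 36 was 1.51, with -0.01 over all genes, and it was 1.19 in the si-Ctr pair and 1.49 in the pair labelled si-Setdb1. In 31 of the 36 both 48 hr arrays lay above both 0 hr arrays, which held for 20.1% of all genes. A gene that is bright at 48 hr alone can pass the filter through those arrays, so these counts are descriptions of the tested members. Zbtb16 was the member that passed the test, and with a prior variance that follows intensity 24 of the 36 passed, all higher, against 2.44% of all genes.

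Fkbp5, the immunophilin that binds the receptor complex and damps its signal, read 72.7 at 0 hr and 587.5 at 48 hr in the si-Ctr pair and 79.4 and 972.1 in the pair labelled si-Setdb1 (3.19 ± 0.22, adjusted p = 0.06). Both 0 hr arrays were alike and both 48 hr arrays were several times brighter, while the mean of its probe sets differed by 2.02. Tsc22d3, which encodes the glucocorticoid-induced leucine zipper protein GILZ, read 199 and 1162, and 235.5 and 981.2 (2.22 ± 0.17, adjusted p = 0.06). Per1, a clock gene that the receptor activates directly, read 74.2 and 297.4, and 61.6 and 240.4 (1.92 ± 0.12, adjusted p = 0.06). For these genes the groups did not overlap, and none passed the threshold. Klf9, a Kruppel-like transcription factor, read 422.3 and 1523, and 477.6 and 1484 (1.66 ± 0.15, adjusted p = 0.062).

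Windows from 250 bases before to 50 bases after each annotated start were searched on both strands for the palindromic glucocorticoid response element. Its strict form was AGAACA and TGTTCT with 3 bases of any kind between them. The looser form was ACANNNTGT, a part of the strict one. Shares are of these windows, and the sequences printed are the 250 bases before the start. The strict form was found in 3 of 32851 RefSeq promoter windows (0.00913%) and in 1 window of the genes tested here, that of Sgk1. The looser form was in 6.85% of all windows and 4.05% of the windows of tested genes. It was in 8.57% of those of the genes 2-fold or more higher in both pairs (18 of 210) and 2.53% of those of the genes 2-fold or more lower (5 of 198). In the glucocorticoid-induced list it was in 10.9% of windows (5 of 46). The windows of 3 listed members with a match are shown because these genes differed 2-fold or more in both pairs; Sgk1, Mt1 and Lcn2 were picked for display after their values were seen. Capitals mark the match. The sequences are RefSeq's for GRCm38.p6, read 5' to 3' on the gene's strand, from chr10:21993640-21993889 (plus strand, 1 of 6 windows of Sgk1), chr8:94178839-94179088 (plus strand, Mt1) and chr2:32387740-32387989 (minus strand, Lcn2).
Sgk1: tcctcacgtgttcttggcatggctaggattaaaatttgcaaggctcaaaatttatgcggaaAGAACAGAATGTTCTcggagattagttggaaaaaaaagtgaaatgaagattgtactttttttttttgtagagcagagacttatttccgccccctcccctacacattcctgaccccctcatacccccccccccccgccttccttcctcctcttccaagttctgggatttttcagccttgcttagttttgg
Mt1: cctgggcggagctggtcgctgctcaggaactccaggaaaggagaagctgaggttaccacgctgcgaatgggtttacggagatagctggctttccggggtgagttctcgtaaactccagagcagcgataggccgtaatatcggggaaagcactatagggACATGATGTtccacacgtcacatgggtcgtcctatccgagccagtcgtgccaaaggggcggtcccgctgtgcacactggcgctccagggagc
Lcn2: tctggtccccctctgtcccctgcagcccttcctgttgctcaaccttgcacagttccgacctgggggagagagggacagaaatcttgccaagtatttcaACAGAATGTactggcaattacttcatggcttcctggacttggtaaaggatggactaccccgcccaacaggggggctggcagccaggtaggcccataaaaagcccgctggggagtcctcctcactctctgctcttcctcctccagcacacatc

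Sgk1, a serum and glucocorticoid regulated kinase, holds the strict form from 189 bases before its start, and it read 414.9 and 1161 in the si-Ctr pair and 370.5 and 1069 in the other (1.43 ± 0.18, adjusted p = 0.0809). Mt1, a metal-binding metallothionein, holds the looser form from 92 bases before its start. It read 1362 and 5198, and 658.8 and 5648 (2.46 ± 0.33, adjusted p = 0.0882). Lcn2, a secreted carrier of iron-binding siderophores, holds it from 152 bases before its start and read 0.2 and 65.8, and 7.7 and 143.2 (5.03 ± 0.59, adjusted p = 0.0736). Its 0 hr signals lay at or under the filter level, and its log2 difference was 2.58 with the pseudocount 20 times larger. In all 3 genes both 48 hr arrays lay above both 0 hr arrays. A match describes the letters of the window and does not show that the receptor binds there.

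Nr3c1, the glucocorticoid receptor gene, read 346.1 and 222.1 in the si-Ctr pair and 477 and 304.8 in the pair labelled si-Setdb1 (-0.61 ± 0.21, adjusted p = 0.267). Its 48 hr signal was below its 0 hr signal in each pair and below both 0 hr arrays. Hsd11b1, the enzyme that regenerates active glucocorticoid from its inert form in cells, read 33 and 110.3, and 46.7 and 1008 (2.96 ± 0.66, adjusted p = 0.159). The direction was shared while the size differed widely between the pairs. The list of 12 tested receptor partners and cofactors had a median of -0.14. In both pairs 1 member (8.33%) was 2-fold or more higher, against 1.67% of all genes.

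Among the 28 gene lists, that of cell cycle genes had the largest share of members 2-fold or more lower in both pairs. All 42 cell cycle and DNA replication genes found on the array were tested. Of these, 39 had a lower mean at 48 hr, against 6287 of all 12402 genes. Of the 42, 21 (50%) were 2-fold or more lower in both pairs against 1.82% of all genes, and none was 2-fold or more higher. The median was -1.11, with -1.18 in the si-Ctr pair and -1.05 in the pair labelled si-Setdb1. In 36 of 42 both 48 hr arrays lay below both 0 hr arrays, against 21.3% of all genes. None passed the test, the smallest adjusted p being 0.06, and 29 passed with the prior variance following intensity, all lower, against 2.61% of all genes.

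Bub1, a kinase of the spindle checkpoint, read 303.5 and 83.9 in the si-Ctr pair and 273.2 and 84.5 in the pair labelled si-Setdb1 (-1.65 ± 0.13, adjusted p = 0.06). Ccna2, the cyclin A of S phase and mitosis, read 470.6 and 133.4, and 442.4 and 141.6 (-1.65 ± 0.16, adjusted p = 0.0644). Top2a, the topoisomerase of dividing cells, read 1268 and 540.6, and 1285 and 522.5 (-1.22 ± 0.12, adjusted p = 0.0644). In these genes the arrays of one time differed little between the siRNA pairs, and the times did not overlap. Cdc6, which licenses replication origins, read 134.7 and 39.1, and 156.5 and 59.2 (-1.46 ± 0.15, adjusted p = 0.0644). Ube2c, the ubiquitin-conjugating enzyme of the anaphase-promoting complex, read 1144 and 375, and 953.7 and 360.1 (-1.46 ± 0.16, adjusted p = 0.0669). Aurka, a mitotic kinase of the spindle poles, read 222.1 and 92.3, and 214.6 and 81.7 (-1.22 ± 0.14, adjusted p = 0.0701), and the mean of its probe sets differed by -0.34. Among the leading falls outside the list were Cenpw, a centromere protein at 240.4 and 70.7, and 240.4 and 57.8, and Spdl1, a kinetochore adaptor at 159 and 39.5, and 110.1 and 33.3. The 3 members that were not lower on average were Ccnd3, Ccnd2 and E2f2, of which the D-type cyclin Ccnd3 read 325.6 and 533.5, and 599.3 and 835.7 (0.58 ± 0.17, adjusted p = 0.23). These 3 were named after their values were seen.

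The promoters of mitotic genes are known for the CCAAT box and the cell cycle homology region. CCAAT and TTTGAA were searched on both strands of windows from 250 bases before to 50 bases after each start. Printed are the 250 bases before the start. TTTGAA was in 11.6% of the windows of tested genes, 11.4% of those of the genes 2-fold or more higher in both pairs and 29.8% of those of the genes 2-fold or more lower. CCAAT was in 37.8%, 39.5% and 58.1% of the same sets, and both motifs together in 4.48%, 3.81% and 21.2%. Of the 35 windows of cell cycle members, 77.1% held CCAAT and 40% held both. Of the 46 windows of glucocorticoid-induced members, 52.2% held CCAAT and 4.35% held both. The windows of Top2a and Ube2c are shown as 2 members that hold both, with capitals for either motif on either strand, so ATTGG and TTCAAA mark the reverse strand. They were picked for display after their values were seen and lie in GRCm38.p6 at chr11:99024190-99024439 (minus strand, Top2a) and chr2:164769679-164769928 (plus strand, Ube2c), from RefSeq.
Top2a: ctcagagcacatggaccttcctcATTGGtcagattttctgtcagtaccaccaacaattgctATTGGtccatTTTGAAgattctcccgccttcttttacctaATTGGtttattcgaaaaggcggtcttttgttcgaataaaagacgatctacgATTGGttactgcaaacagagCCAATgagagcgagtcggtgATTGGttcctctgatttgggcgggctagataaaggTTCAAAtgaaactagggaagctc
Ube2c: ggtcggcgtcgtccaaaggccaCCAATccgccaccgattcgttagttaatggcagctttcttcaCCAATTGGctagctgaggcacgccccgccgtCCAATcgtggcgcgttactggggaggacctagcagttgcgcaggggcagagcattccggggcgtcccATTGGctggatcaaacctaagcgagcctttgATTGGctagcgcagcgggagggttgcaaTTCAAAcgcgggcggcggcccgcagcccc

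Both printed sequences hold CCAAT 6 times, and in Ube2c 2 of these overlap. TTTGAA is found 2 times in the printed bases of Top2a, the nearer from 23 bases before the start. In those of Ube2c it is found 1 time, from 29 bases before the start. Of 26 tested cell cycle inhibitors and p53 targets none was 2-fold or more higher or lower in both pairs, and their median was 0.04 (-0.03 with the array medians subtracted). Cdkn1a, the inhibitor p21, read 766 and 1190, and 1298 and 1704 (0.45 ± 0.14, adjusted p = 0.235).

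Acute phase and retinoid genes were higher among a part of their lists. Of 24 complement and acute phase genes on the array, 14 were tested. Of the 14, 5 (35.7%) were 2-fold or more higher in both pairs against 1.67% of all genes. None was lower (1.82%), and the median was 0.33. It was 1.33 when the quantile normalisation and the filter were both run over the 8 arrays of the fit alone. That setting can change which members are tested. The 5 were Cp, Lbp, Lcn2, Hp and Orm1. At 0 hr, Lcn2 (0.2 and 7.7) and Orm1 (3.7 and 6.2) lay at or under the filter level. A member bright at 48 hr alone can pass the filter through those arrays, so the count describes the tested members. Cp, the ferroxidase ceruloplasmin, read 233.2 and 1642 in the si-Ctr pair and 515 and 2321 in the pair labelled si-Setdb1 (2.38 ± 0.24, adjusted p = 0.0644). Hp, the haemoglobin-binding haptoglobin, read 217.3 and 1106, and 472 and 3458 (2.50 ± 0.30, adjusted p = 0.0736). Both 48 hr arrays exceeded both 0 hr arrays, and the pair labelled si-Setdb1 was brighter at each time. Lbp, the lipopolysaccharide-binding protein, read 20.9 and 141.8, and 79.7 and 277.5 (2.19 ± 0.25, adjusted p = 0.0709).

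Of 30 retinoid and detoxification genes on the array, 21 were tested. Of the 21, 4 (19%) were 2-fold or more higher in both pairs against 1.67% of all genes and 1 was 2-fold or more lower (1.82%), with a median of 0.17. Here too the counts describe the tested members, which can pass the filter through the 48 hr arrays alone. Aldh1a1, under the filter level at 0 hr, was the member that passed the test. Adh1, an alcohol dehydrogenase that also oxidises retinol, read 105.9 and 362.7, and 212.8 and 773.4 (1.77 ± 0.14, adjusted p = 0.06). Rarres2, the adipokine chemerin, read 29.2 and 124.3, and 90.8 and 616.5 (2.34 ± 0.25, adjusted p = 0.0656), or by 1.33 in the mean of its probe sets. In both genes the 48 hr array of each pair lay above both 0 hr arrays.

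Many fat cell genes had a higher signal at 48 hr, by a larger difference in the pair labelled si-Setdb1. Lipid droplet, fatty acid and adipokine genes made up the list. Of 44 fat cell lipid and secreted genes listed, 41 were on the array and 32 were tested. Of these, 25 were higher in both pairs (31.6% of all genes) and 2 were lower in both (32.6%). By 2-fold or more in both pairs, 11 (34.4%) were higher against 1.67% of all genes and none was lower against 1.82%. As in the lists above, a member bright at 48 hr alone can pass the filter, so these counts describe the tested members. The median was 1.23, with 0.40 in the si-Ctr pair and 2.16 in the pair labelled si-Setdb1. In 29 of the 32 the difference was larger in the pair labelled si-Setdb1, against 5569 of all 12402 genes. By 2-fold or more it was larger in 16 (5.7% of all genes) and smaller in none (4.68% of all genes). With 1 pair per siRNA this difference has no replicate and was not tested, and the arrays of the 2 siRNAs differed at 0 hr too. None passed the test, and 11 passed with the prior variance following intensity, against 2.44% of all genes for higher signals.

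Fabp4, the fatty acid carrier of fat cells, read 84.2 at 0 hr and 1885 at 48 hr in the si-Ctr pair, and 340.3 and 9064 in the pair labelled si-Setdb1 (4.48 ± 0.64, adjusted p = 0.0914). The groups did not overlap, and the pair labelled si-Setdb1 was brighter at both times. Adipoq, the hormone adiponectin, read 51.6 and 287.3, and 221.6 and 4990 (3.38 ± 0.59, adjusted p = 0.113). Lpl, the lipase that frees fatty acids from lipoproteins, read 29.5 and 92.2, and 203 and 1450 (2.16 ± 0.30, adjusted p = 0.089). For Lpl the si-Ctr array at 48 hr lay under the 0 hr array labelled si-Setdb1, so the groups overlapped, and for Adipoq the margin was 287.3 against 221.6. Retn, the secreted protein resistin, read 1 and 4.4, and 2 and 648.3 (4.54 ± 1.80, adjusted p = 0.316). Its signal passed the filter level on 1 array alone, and with the pseudocount 20 times larger its log2 difference was 2.71.

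Other members differed from each other in how alike the pairs were. Plin4, a lipid droplet coat protein, read 383.2 and 890.6, and 302.7 and 818.6 (1.28 ± 0.20, adjusted p = 0.098). Car3, a carbonic anhydrase abundant in fat and muscle, read 8.7 and 77.7, and 7.9 and 43.9 (2.60 ± 0.27, adjusted p = 0.0658). Their differences were of similar size in each pair, although that of Car3 was 1.63 with the pseudocount 20 times larger and 0.87 in the mean of its probe sets. Acsl1, which activates long-chain fatty acids, read 365.2 and 436.3 with si-Ctr but 317 and 3506 in the other pair, and Dgat2, the enzyme of the last step of triglyceride synthesis, read 126.3 and 99.7, and 79.4 and 526.6. Pnpla2, the triglyceride lipase ATGL, read 35.5 and 94.8, and 30.6 and 670.7. Acsl1, Dgat2, Pnpla2 and, below, Ppargc1b were named after their values were seen. Fasn, the fatty acid synthase, read 750.7 and 636.1, and 643.8 and 797.4 (0.03 ± 0.18, adjusted p = 0.945), and was likewise named after its values were seen. Summed over the 7 mature fat cell markers on the array, the signal went from 149.7 to 2200 in the si-Ctr pair. In the pair labelled si-Setdb1 it went from 567.7 to 15155, and Fabp4 was the largest part of each sum. Above the filter level were 2 of the 7 at 0 hr and 3 at 48 hr with si-Ctr, and 2 and 5 in the other pair.

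**Figure D3:**
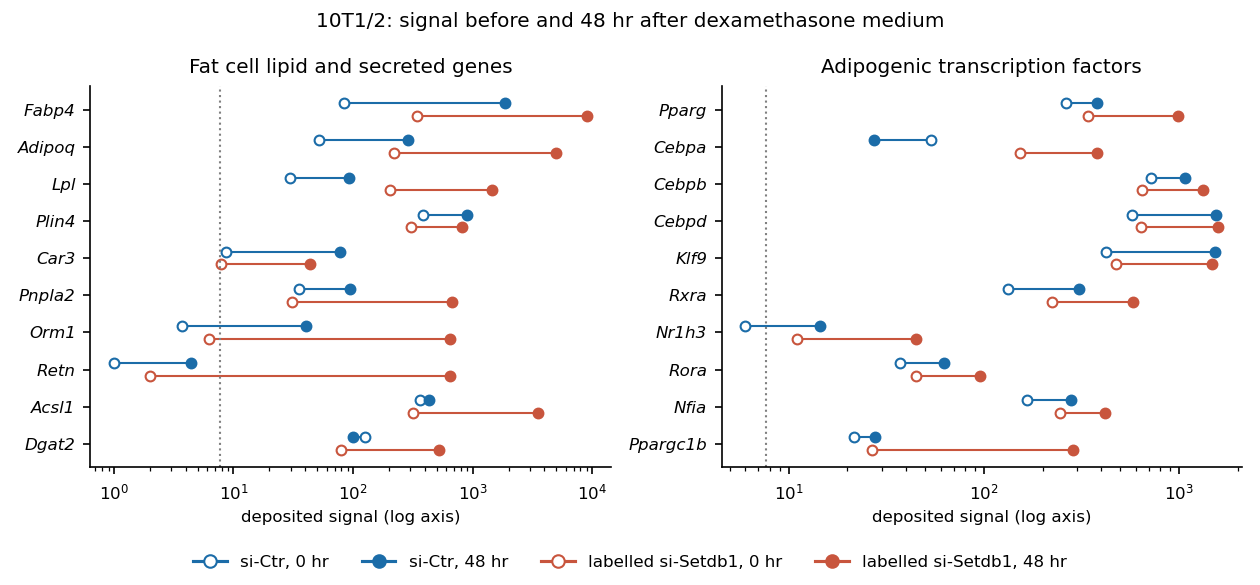
Deposited signal (log axis) of 10 fat cell genes (left) and 10 adipogenic transcription factors (right) on the 4 arrays of 10T1/2; open points are 0 hr, filled points 48 hr, blue si-Ctr and red the pair labelled si-Setdb1, with the filter level of 7.67 dotted. Red lines are longer than blue ones for Adipoq, Retn, Acsl1 and Dgat2, of similar length for Plin4, Cebpd and Klf9, and the blue line of Cebpa runs from 53.8 down to 27.4.

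The adipogenic transcription factors differed by member. Of 30 tested, 4 (13.3%) were 2-fold or more higher in both pairs against 1.67% of all genes, none was 2-fold or more lower, and the median was 0.25. Cebpd, an early C/EBP factor that glucocorticoids induce, read 572.9 and 1548, and 642.3 and 1592 (1.30 ± 0.15, adjusted p = 0.0701). Rxra, the partner receptor of Pparg, read 133 and 308.9, and 222.5 and 581.2 (1.28 ± 0.14, adjusted p = 0.0669), or by 0.77 in the mean of its probe sets. Klf9 and Nr1h3 were the other two. Nr1h3, the oxysterol receptor LXR alpha, read 6 and 14.5, and 11 and 44.7 (1.49 ± 0.24, adjusted p = 0.101), and with the pseudocount 20 times larger its log2 difference was 0.83.

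Cebpb, the other early C/EBP factor, read 722.3 and 1069, and 647.4 and 1325 (0.74 ± 0.17, adjusted p = 0.164). Pparg read 264.6 and 380, and 341.3 and 990.5 (0.99 ± 0.27, adjusted p = 0.203). Each was higher at 48 hr in both pairs, and neither passed. Cebpa, the late C/EBP factor of mature fat cells, went opposite ways: 53.8 and 27.4 with si-Ctr, and 152.8 and 378.3 in the pair labelled si-Setdb1 (0.22 ± 0.54, adjusted p = 0.866). Ppargc1b, a coactivator of mitochondrial genes, read 21.6 and 27.8, and 26.7 and 287.5. Among 29 tested preadipocyte genes and adipogenesis inhibitors none was 2-fold higher or lower in both pairs, and the median was -0.09. Dlk1, the preadipocyte factor Pref-1, read 43.3 and 25.5, and 98.4 and 45 (-0.84 ± 0.16, adjusted p = 0.121), and the mean of its probe sets differed by -1.96. Twist2, which marks undifferentiated mesenchyme, read 140.7 and 236.9, and 104.3 and 176.8 (0.75 ± 0.15, adjusted p = 0.135).

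Contractile genes were lower in part and matrix genes mixed. Of 20 tested contractile and myofibroblast genes, 14 were lower in both pairs, against 32.6% of all genes. Higher in both was 1, against 31.6%. By 2-fold or more, 3 (15%) were lower in both pairs against 1.82% of all genes, none was higher and the median was -0.43. Acta2, smooth muscle actin, read 3922 and 2486, and 4857 and 2415 (-0.91 ± 0.15, adjusted p = 0.106). Myl9, a myosin regulatory light chain, read 315.7 and 110.9, and 853.8 and 183.8 (-1.76 ± 0.29, adjusted p = 0.107). Both 48 hr arrays lay below both 0 hr arrays. Of 47 collagens and matrix proteins, 3 (6.38%) were 2-fold or more higher in both pairs, against 1.67% of all genes. Lower was 1 (2.13%), against 1.82% of all genes. The median was -0.02, and its sign changed with the scaling (0.002 on the deposited scale). The 3 that were higher belong to the basement membrane, the sheet of matrix that also surrounds fat cells: Lama2, Col4a1 and Col4a2. Col4a1 read 1319 and 2832, and 1825 and 5442 (1.29 ± 0.18, adjusted p = 0.0884), and the laminin chain Lama2 read 11.1 and 66.7, and 11.1 and 39.4 (2.06 ± 0.22, adjusted p = 0.0666), a log2 difference of 1.32 with the pseudocount 20 times larger.

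Of the pathway lists, the Wnt list had 2 of 26 members 2-fold or more lower in both pairs (7.69%, against 1.82% of all genes). These were Rspo3 and the receptor gene Fzd8, which read 482.6 and 198.3, and 412.4 and 133.3 (-1.38 ± 0.23, adjusted p = 0.108). The median of this list was -0.30. In the TGF-beta and BMP list 1 of 31 (3.23%, against 1.82%) was 2-fold or more lower. It was the ligand gene Tgfb2 at 689.4 and 299.3, and 412.8 and 150.9 (-1.27 ± 0.18, adjusted p = 0.0914). The insulin and IGF axis had Igf1 lower (1 of 20, 5%, against 1.82%) and 2 of 20 members (10%, against 1.67% of all genes) higher. These were Pappa, a protease that frees IGF from its binding proteins, at 39 and 123.8, and 72.1 and 221.7 (1.60 ± 0.12, adjusted p = 0.06) or 0.91 in the mean of its probe sets, and the binding protein gene Igfbp3 at 66.3 and 242.9, and 58.8 and 523.1 (2.42 ± 0.40, adjusted p = 0.105).

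Inflammatory genes, a class that glucocorticoids are known to repress, were dim or lower in part. Of 31 on the array 19 were tested, and the median was -0.39. Of the 19, 2 (10.5%) were 2-fold or more lower in both pairs, Cxcl5 and Mmp9, against 1.82% of all genes. Cxcl5, a neutrophil chemokine, read 87.4 and 33.7, and 52.3 and 17.5 (-1.37 ± 0.14, adjusted p = 0.0644). Ptgs2, the inducible cyclooxygenase, read 90.8 and 55.7, and 102.1 and 24.8 (-1.27 ± 0.37, adjusted p = 0.223). It was lower in both pairs but by less than 2-fold with si-Ctr. Of 30 immediate early and ERK feedback genes 3 (10%) were 2-fold or more lower in both pairs, against 1.82% of all genes. Among them was the transcription factor gene Etv5 at 66.1 and 19.1, and 49.7 and 19.1 (-1.47 ± 0.14, adjusted p = 0.0644), or -0.97 in the mean of its probe sets. Dusp1, a phosphatase of MAP kinases and a known glucocorticoid target, was on the other side at 146.9 and 327.9, and 118 and 218.1 (1.02 ± 0.16, adjusted p = 0.103).

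Clock genes moved in both directions. Of 14 tested, 2 (14.3%) were 2-fold or more higher in both pairs, Per1 and Nfil3, against 1.67% of all genes. Another 2 (14.3%) were lower, Dbp and Nr1d2, against 1.82%. Nr1d2 was named after its values were seen. Dbp, a clock output factor, read 150.1 and 59.6, and 259.9 and 99.5 (-1.25 ± 0.13, adjusted p = 0.0656). Nfil3, which acts on the same DNA element as Dbp with the opposite sign, read 105.1 and 255.2, and 135.5 and 354.6 (1.31 ± 0.28, adjusted p = 0.148). The 24 tested genes of cholesterol synthesis and uptake had small differences, most of them to the lower side. In both pairs 19 were lower, against 32.6% of all genes, and 2 were higher, against 31.6%. None was 2-fold or more lower or higher in both pairs, and the median was -0.32. Fdps, the farnesyl diphosphate synthase of that pathway, read 747.2 and 465.5, and 710.3 and 445.4 (-0.66 ± 0.17, adjusted p = 0.191), or -0.43 in the mean of its probe sets. The 20 ribosomal proteins had a median of -0.03, and of 0.05 on the deposited scale. The 27 respiratory chain subunits had medians of -0.04 in the si-Ctr pair and 0.36 in the pair labelled si-Setdb1. In 26 of 27 the difference was larger in the pair labelled si-Setdb1, against 5569 of all 12402 genes.

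Of the lists not yet described, none had more than 3 members 2-fold or more higher or lower in both pairs. Over all genes these shares were 1.67% higher and 1.82% lower, to be read beside each count below. The 19 tested genes of amino acid synthesis and transport had a median of 0.16 and 1 member (5.26%) 2-fold or more higher. It was Glul, the glutamine synthetase that glucocorticoids are known to induce. Glul read 332.9 and 1361, and 396.8 and 2309 (2.17 ± 0.21, adjusted p = 0.0636), and both 48 hr arrays lay above both 0 hr arrays. The 27 metalloproteinases and inhibitors had, beside Timp4, 2 members lower (7.41%): Mmp16, named after its values were seen, and Mmp9, a gelatinase at 16.8 and 0.8, and 28.1 and 9.8 (-2.53 ± 0.51, adjusted p = 0.137), whose log2 difference was -0.94 with the pseudocount 20 times larger. The 27 growth factors and receptors had 1 member on each side. Gas6, a ligand of the TAM receptor kinases, read 96.3 and 543.2, and 551.3 and 1602 (1.93 ± 0.35, adjusted p = 0.116), with the si-Ctr array at 48 hr just under the other pair at 0 hr. Erbb3, a receptor of neuregulins, read 201.5 and 90.9, and 53.8 and 24.2 (-1.07 ± 0.15, adjusted p = 0.089), so that the pairs differed more in level than the times did.

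The 19 prostaglandin and leukotriene genes also had 1 member on each side, the prostaglandin D synthase gene Ptgds at 6.9 and 27.2, and 1.2 and 18 (2.50 ± 0.40, adjusted p = 0.101), and the receptor gene Ptger4 at 14.5 and 5.8, and 45.4 and 8 (-1.86 ± 0.31, adjusted p = 0.108). With the pseudocount 20 times larger these differences were 0.99 and -0.98, and that of Ptger4 was -1.08 in the mean of its probe sets. The 30 heat shock and unfolded protein response genes had a median of 0.16 and 1 member higher, the small heat shock protein gene Hspb1 at 43 and 105.8, and 64.6 and 161.5 (1.29 ± 0.26, adjusted p = 0.135). For the other lineages open to these cells, none of 17 tested bone and cartilage genes was 2-fold or more higher or lower in both pairs. The same held for 7 tested skeletal muscle genes. Of these 2 lists, 10 and 15 further members on the array were too dim over the 12 arrays to be tested.

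**Figure D4:**
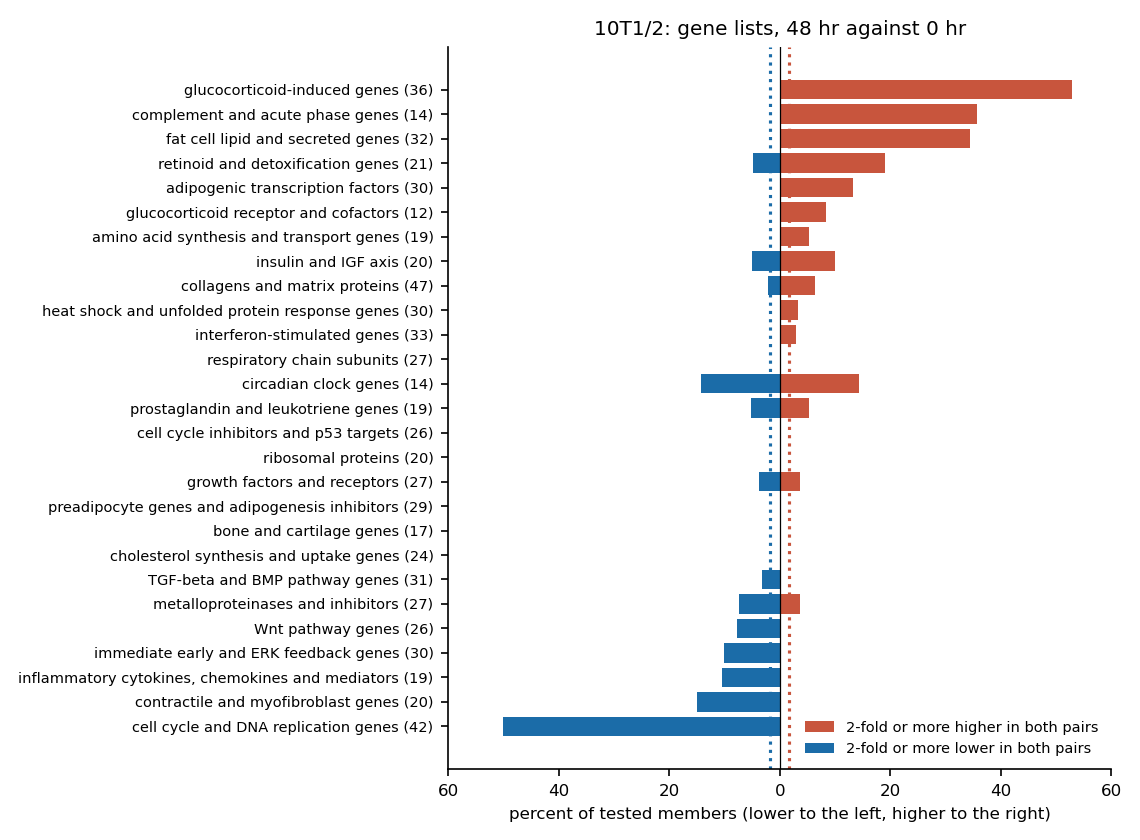
Percent of the tested members of 27 gene lists (number tested in brackets) that were 2-fold or more higher (red, right) or lower (blue, left) at 48 hr in both 10T1/2 pairs. Dotted lines mark the same share over all 12402 genes, 1.67% and 1.82%. The longest bars are those of the glucocorticoid-induced genes (52.8%) and of the cell cycle genes (50%).

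The 3T3-L1 preadipocyte line had the nearest design, with 2 pairs of arrays (si-Ctr and si-Setdb1) at 0 hr and after 36 hr in the same medium. Line and time differ together and cannot be told apart. No gene passed the test of the difference between the lines (0 of 12402, 0%; 1236 at an unadjusted p under 0.05), nor of the response in 3T3-L1 itself (0%; 1988). With the prior variance following intensity, 30 genes (0.242%) had a higher difference in 10T1/2 and 40 (0.323%) a lower one.

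Glucocorticoid-induced genes were higher in both lines, with a median of 1.07 in 3T3-L1 and 17 of 36 members 2-fold or more higher in both pairs there, where 1.35% of all genes were. Cell cycle genes had a median of -0.03 in 3T3-L1, and none of the 42 was 2-fold or more lower there, against 1.55% of all genes. In 9 of the 42 the difference between the lines passed with the prior variance following intensity, all lower in 10T1/2. For Bub1 the difference between the lines was -1.58 ± 0.19 (adjusted p = 0.24 in the main test), and for Cenpw it was -2.07 ± 0.22 (adjusted p = 0.24).

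Timp4 was higher by 5.42 in 10T1/2 and by 1.56 in 3T3-L1 on the log2 scale, a difference of 3.86 ± 0.19 (adjusted p = 0.24). Lrrn3 was lower by 3.50 in 10T1/2 and read -0.24 in 3T3-L1 (difference -3.26 ± 0.23, adjusted p = 0.24). Egr1, an immediate early transcription factor, read 787.7 and 1149, and 549.8 and 826.8 in 10T1/2, but 2049 and 412, and 1948 and 495.1 in 3T3-L1 (difference 2.69 ± 0.23, adjusted p = 0.24). The arrays of the lines thus lay on opposite sides of their 0 hr arrays for this gene. The list of immediate early genes had a median of 0.03 in 10T1/2, of -0.06 with the array medians subtracted, and of -0.72 in 3T3-L1. Hp was higher in both lines, by 2.50 in 10T1/2 and 5.76 in 3T3-L1 (difference -3.26 ± 0.42, adjusted p = 0.24), and Igf1 was lower by a similar size in both, at -2.22 and -2.15.

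**Figure D5:**
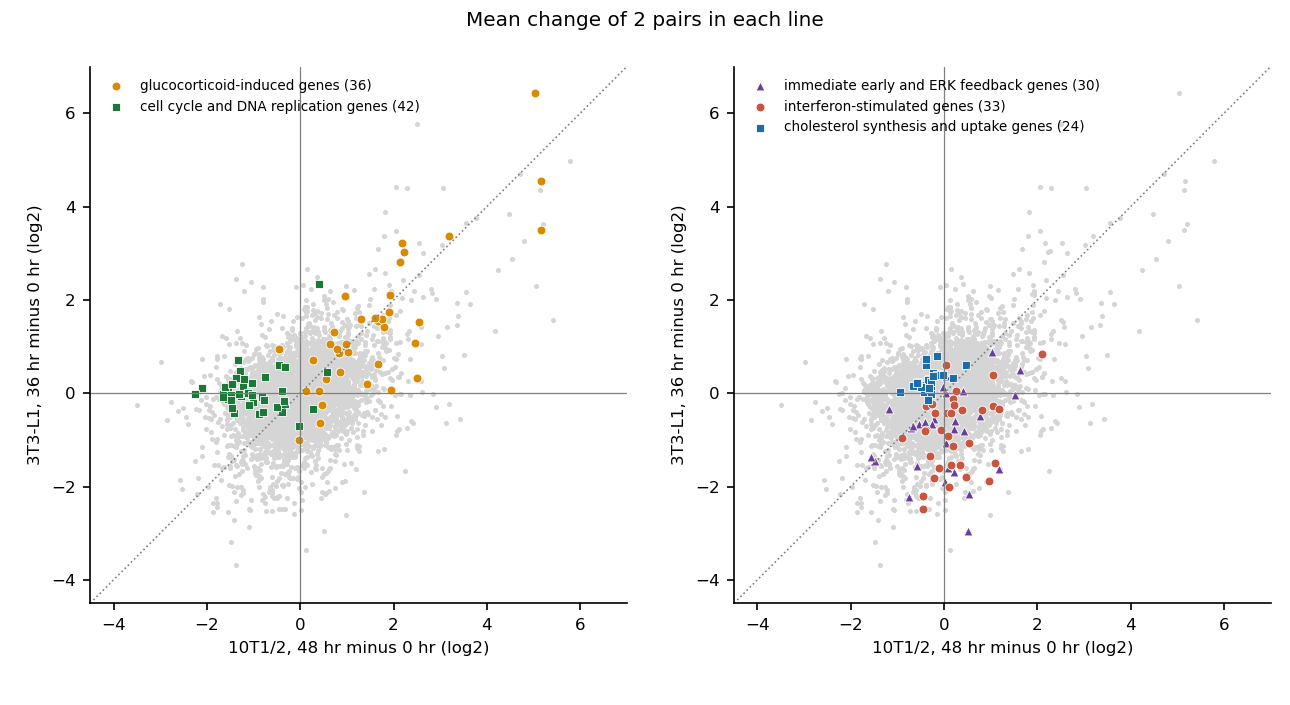
Mean log2 difference of the 2 pairs in 10T1/2 (48 hr minus 0 hr, horizontal) and in 3T3-L1 (36 hr minus 0 hr, vertical) for the 12402 tested genes (grey) with the members of 5 lists in colour and the line of equal difference dotted. Glucocorticoid-induced genes lie to the upper right in both lines, cell cycle genes lie left of 0 in 10T1/2 and around 0 in 3T3-L1, and many interferon and immediate early genes lie below 0 in 3T3-L1 and around 0 in 10T1/2.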

How the data were processed

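Biotinylated cRNA from 2 mouse lines was read on 12 Affymetrix arrays, per the labels' protocols, and 8 arrays (4 pairs) entered the fit. The deposited intensities are linear, with 1 value for each probe set on each array, and the mean of every array trimmed by 2% at each end is 100. How the scans were turned into signals, and with what software, is not given in the sources used here. The authors' deposited log2 ratio columns were not used.

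Of 45037 probe sets other than the 64 controls, 38068 had 1 gene symbol, and the others, with several (1253), none (5654) or a date (62), were not named. Through RefSeq 33189 symbols were current, 2004 were synonyms and 2875 kept the deposited name. The brightest probe set stood for each of 20670 genes. Log2 values are quantile-normalised log2(intensity + 0.8). This pseudocount is the 10th percentile of the signals and lies under the filter level, so folds of dim genes depend on it. With the larger pseudocount among the alternatives, the log2 difference was closer to no change for each dim gene where it is printed. The folds of dim genes are therefore not to be read as conservative. A gene was tested if its mean reached the 40th percentile, which left 12402.

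The fit used limma 3.58.1 in R 4.3.3 with the line and siRNA pair as a block, the medium effect separate in each line, 2 residual degrees of freedom and Benjamini-Hochberg adjustment. Pairing came from the siRNA in the labels, and r over genes between the 2 pairs of 10T1/2 was 0.437. The number of arrays limits the precision. The code was tested on simulated data. Alternatives changed the scaling, pseudocount, filter, probe set rule, arrays, prior variance and block, and left out each pair.

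Members, the 28 gene lists and the tests were chosen with earlier results of these data known. Named are 16 genes fixed by name (Atf7ip, which read 128.3 and 105.9 in the si-Ctr pair and 502.6 and 358.9 in the other, among them), the leading 15 per direction, up to 6 per list by smallest p and 8 per direction for each difference. Some of these are not printed, and others named outside the rule are marked. Promoter windows are RefSeq's for GRCm38.p6.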

Additional observations from a re-analysis of the deposited data

Results flagged for a closer look

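In 5 lists of at least 10 tested members, the median log2 difference had 1 sign in both pairs of 10T1/2 and the opposite sign in both pairs of 3T3-L1. These differences between the lines were not tested, and line and time cannot be told apart in them. For the 33 interferon-stimulated genes, the antiviral genes induced by interferon, the median was 0.145 in 10T1/2 (0.178 with si-Ctr, 0.107 in the pair labelled si-Setdb1) and -0.788 in 3T3-L1 (-0.815 and -0.744). Isg20, an exonuclease of this list, read 7.3 and 46.4, and 16.5 and 60.1 in 10T1/2 (2.10 ± 0.21, limma adjusted p = 0.0644), a log2 difference of 1.33 with the pseudocount 20 times larger. In 3T3-L1 it read 48.2 and 82.8, and 42.9 and 77.1. This member was thus higher in both lines and did not follow the list median of 3T3-L1. For the 24 cholesterol synthesis and uptake genes the median was -0.321 in 10T1/2 (-0.391 and -0.283) and 0.257 in 3T3-L1 (0.443 and 0.182). For the 20 genes of the insulin and IGF axis it was 0.321 in 10T1/2 (0.318 and 0.238) and -0.131 in 3T3-L1 (-0.159 and -0.179). For the 27 metalloproteinases and inhibitors it was 0.245 in 10T1/2, although 0.153 and 0.005 within the pairs, and -0.279 in 3T3-L1 (-0.0667 and -0.341). For the 20 ribosomal proteins it was -0.0304 in 10T1/2 (-0.0432 and -0.026) and 0.0313 in 3T3-L1 (0.0392 and 0.0434), and on the deposited scale the sign in 10T1/2 was turned, at 0.05.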

How the results depend on the processing

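The 6 genes that passed limma's test at 48 hr in 10T1/2 (5 higher, 1 lower) were a count that moved with nearly every choice. It was 13 (9 higher, 4 lower) on the deposited scaling and 66 (40 higher, 26 lower) with each array's median subtracted, and these held all 6. A pseudocount 20 times larger gave 547 (231 higher, 316 lower), an intensity trend in the variance prior 627 (303 higher, 324 lower) and a stricter filter on dim genes 468 (225 higher, 243 lower), the last with 2 of the 6. No gene passed limma's test with no filter on dim genes (2187 at an unadjusted p under 0.05), with the mean of a gene's probe sets (1759) or with the 10T1/2 arrays alone (1813). Leaving out any 1 of the 4 pairs gave counts from 0 to 0 (1415 to 1975 at an unadjusted p under 0.05). The pairing came from the shared line and siRNA labels. With no replicate block the count was 55 (29 higher, 26 lower), 5 of the 6 among them. For the difference between the lines, limma called 0 genes (1236 at an unadjusted p under 0.05), against 6 with the larger pseudocount, 69 with the stricter filter and 70 with the intensity trend. It called 0 under the other settings, the one with no replicate block included. The counts past 2-fold in both pairs, 207 higher and 226 lower, dropped to 112 and 114 with the larger pseudocount and stayed within 1.5 times under the 4 other settings that changed the values. The 2-fold rule was added after seeing the data, while its alternatives were planned for the values in each pair. Quantile normalisation over the 8 arrays, with the filter run over them too, was also chosen after seeing the data, and gave 7 called genes.

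Of the values of single genes under an alternative, 1062 kept their direction and side of the threshold, 222 gained a call, 43 lost one and 6 changed sign. The log2 difference of Fasn was -0.035 with the array median subtracted, and that of E2f2 was -0.48 with the mean of its probe sets. Leaving out 1 pair, Cebpa ranged from -0.85 to 1.29, Dgat2 from -0.28 to 2.63, Fasn from -0.23 to 0.30 and Setdb1 from -0.0099 to 0.44, each lowest without the si-Setdb1 pair of 10T1/2. The medians of the bone and cartilage, growth factor and prostaglandin lists changed sign with the mean of the probe sets, to 0.0011, 0.26 and -0.13. The cause was not tested. With 2 pairs, signals near background on any array limit which differences could be called.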
